A study of Mus musculus with 22 samples.

Results

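Wild-type (WT) bone marrow myeloid cultures kept in low oxygen were compared with WT cultures kept in normal oxygen. The comparison takes the 4 WT columns of the hypoxia count table and the 4 WT columns of the normoxia count table, chosen by their sample titles, so 8 of the 22 libraries of the series, on the Ensembl genes listed in both tables. All 8 come from C57BL/6N mice that carry no targeted allele, and the other culture libraries come from mice lacking VISTA (KO), an immune checkpoint protein that Vsir encodes. The normoxia cultures were taken at day 4, and the series text gives GM-CSF and IL-6 as the growth factors of that culture and calls its replicates independent biological replicates. The hypoxia cultures are labelled with a time point of 24 hours. The oxygen percentage, the growth factors of the hypoxia cultures, whether those cells had first been grown in normoxia, and the independence of their replicates are not given in the sources used here. Oxygen, time point and count table therefore differ together, their effects cannot be told apart, and p-values measure the spread between these libraries only. RNA came from whole cultures, so fewer cells of a type and less RNA per cell cannot be told apart either.

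Cells sense oxygen mainly through hypoxia-inducible factors (HIF). In normal oxygen, prolyl hydroxylases mark the HIF alpha subunit and the VHL ubiquitin ligase removes it. In low oxygen the alpha subunit pairs with ARNT, binds short DNA motifs with the core ACGTG or GCGTG, and turns on genes of glucose uptake, glycolysis, vessel growth and mitochondrial clearance. Bone marrow cells grown with GM-CSF and IL-6 are a common culture model of myeloid-derived suppressor cells, immature granulocytic and monocytic cells that dampen T cell responses, and low oxygen is a feature of the tumors in which such cells gather.

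The WT normoxia libraries held 23486727 to 23667396 counts and the WT hypoxia libraries 31060342 to 31385825. Both tables leave out genes with fewer than 2 counts over their 8 libraries: 23912 genes stood in the normoxia table, 33265 in the hypoxia table and 23187 in both. Between 19939 and 20202 genes had at least 1 count in a normoxia library, against 24667 to 25806 in a hypoxia library, and with every library thinned to the same total the counts of genes were 19939 to 20194 and 23550 to 24669. Defining myeloid genes were present throughout. Itgam (CD11b) ran from 365 to 433 counts per 1000000 counts of the library after TMM scaling (CPM; TMM factors of 1.03 to 1.07 in normoxia and 0.94 to 0.975 in hypoxia divide every CPM printed here) in normoxia and from 475 to 530 in hypoxia, and Cd33 from 502 to 592 and from 632 to 870. Vsir itself stood at 646, 649, 830.5 and 686 CPM in normoxia replicates 1 to 4 and at 562, 649, 540.3 and 559.9 in hypoxia replicates 1 to 4, overlapping by 1 library, with a log2 fold change of -0.28 ± 0.0936 (standard error, SE) and an adjusted p of 0.0222 in edgeR's quasi-likelihood test. Its call was lost without normoxia replicate 3 or hypoxia replicate 1, 3 or 4 (adjusted p 0.0576 to 0.065). No pair of libraries within a group agreed within counting error, and the first principal component, with 79.2% of the variance, separated the conditions.

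Of 14545 tested genes, 7754 (53.3%) passed an adjusted p of 0.05, 3781 (26%) higher in hypoxia and 3973 (27.3%) lower. Counts within a gene list are read against these shares. A stricter test, whether a change exceeds 1.5-fold, called 2137 genes (14.7%), 1525 higher (10.5%) and 612 lower (4.21%). Large rises were more common than large falls: 554 called genes were at least 4-fold higher and 52 at least 4-fold lower. The scaling of the libraries sets where zero lies. Under the scaling used here (TMM) 48.8% of called genes were higher and the median log2 fold change of all tested genes was -0.0319. With library size alone 34.8% were higher and that median was -0.155, so calls of small size in lists close to the median depend on it. The lists below are described by counts and medians beside these values. Hypoxia libraries also held more RNA counted on pseudogenes (6.31% to 7.04% of counts against 5.17% to 5.71%), and genes in the top 10% of exon GC content had a median log2 fold change of 0.0975 against -0.133 in the bottom 10%. The part of either in the results was not tested beyond the fit with GC content offsets, which called 7814 genes.

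**Figure D1:**
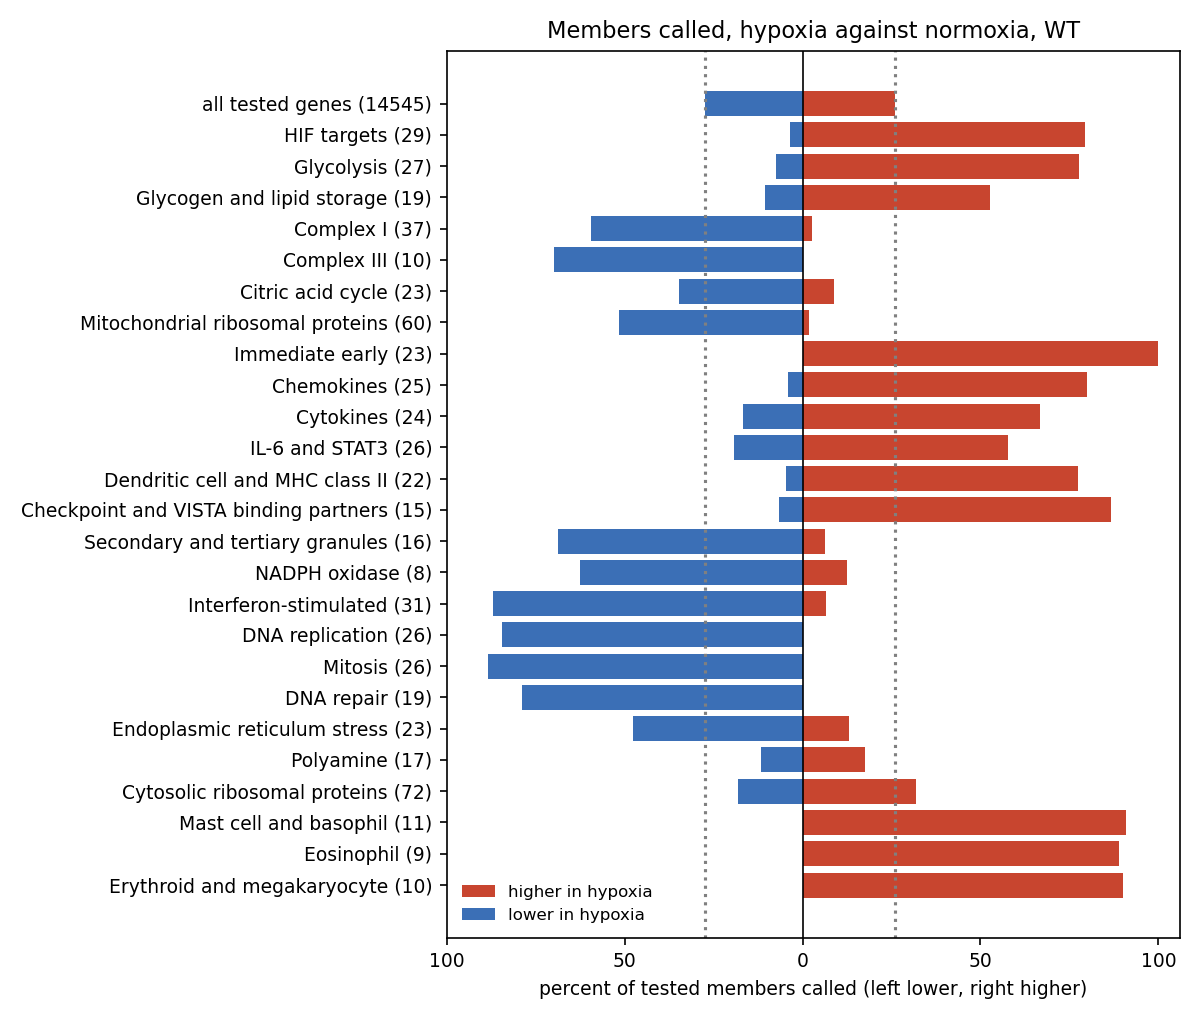
Percent of tested members of 25 gene lists that passed an adjusted p of 0.05, to the right where hypoxia was higher and to the left where it was lower, with the number tested in brackets. Dotted lines mark the shares of all 14545 tested genes (26% higher, 27.3% lower). Immediate early genes (23 of 23), HIF targets (23 of 29) and glycolysis genes (21 of 27) lie far to the right, and interferon-stimulated (27 of 31), mitosis (23 of 26) and DNA replication genes (22 of 26) far to the left.

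Among the oxygen-sensing genes, the prolyl hydroxylases that HIF itself induces rose and Hif1a was not called. Of 11 tested regulators of HIF, 6 rose and 2 fell (4 and 4 with library size alone); their median was 0.205 on the log2 scale. Egln3 (ENSMUSG00000035105, chromosome 12, bases 54178981 to 54203860), a prolyl hydroxylase that is also a HIF target, stood at 131, 96.8, 133 and 129 CPM in the normoxia libraries and at 409, 543, 393 and 433 in the hypoxia libraries. The groups lay far apart, and Egln3 rose 3.63-fold (adjusted p 2.15e-07). Egln1, the main oxygen sensor of that family, rose 1.57-fold, from a range of 68.4 to 82.5 to one of 110.2 to 139.8 CPM, while Egln2, the third member, fell 1.21-fold, from a range of 42.6 to 50.4 to one of 35.4 to 41.1. Hif1a, which encodes the HIF-1 alpha subunit, read 314, 288, 287 and 304 CPM in normoxia and 257, 295, 248 and 259.7 in hypoxia; the groups overlapped and the difference was not called (log2 -0.17 ± 0.073, adjusted p 0.0644). HIF-1 alpha is controlled mainly as a protein, which these data do not measure. Epas1 (HIF-2 alpha) was low but 2.22-fold higher (2.7 ± 0.318 to 5.99 ± 0.742 CPM, SD, n = 4 each), and Hif3a, whose splice forms can oppose HIF-1, rose from a range of 0.0813 to 0.782 to one of 2.46 to 4.52 CPM. Arnt, the shared partner subunit, rose 1.18-fold and Cited2, which competes with HIF for its coactivators, 1.15-fold. The call of Arnt was lost without normoxia replicate 2 or 4 or hypoxia replicate 2 or 4 (adjusted p 0.0555 to 0.0697), that of Cited2 without normoxia replicate 1 or 4 or hypoxia replicate 3 or 4 (adjusted p 0.0728 to 0.106), and both with library size alone (adjusted p 0.249 and 0.383). Siah2, a ubiquitin ligase for the prolyl hydroxylases, fell 1.8-fold, from a range of 35.9 to 45 to one of 18.7 to 24 CPM. Vhl (22.7 ± 2.4 against 25.4 ± 1.15 CPM) and Hif1an, the asparaginyl hydroxylase (22.1 ± 1.76 against 20.6 ± 0.487), were not called.

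Most HIF targets rose. Of the 29 tested, 23 were called higher, 14 of them beyond 1.5-fold, and 1 was called lower, with a median log2 fold change of 0.823. Hilpda (ENSMUSG00000043421, chromosome 6, bases 29272488 to 29275446), a lipid droplet protein that blocks triglyceride breakdown, was the strongest: it stood at 6.15, 4.92, 6.38 and 5.98 CPM in normoxia and at 89.5, 104, 77.9 and 90.8 in hypoxia, a 15.5-fold rise (log2 3.95 ± 0.114, adjusted p 2.38e-10). Bnip3, a receptor that tags mitochondria for removal, read 65.9, 38.1, 75.4 and 57 CPM in normoxia and 212, 256, 189 and 212 in hypoxia, 3.68-fold higher with no overlap. Its relative Bnip3l rose 1.79-fold, from 222 ± 26.1 to 396 ± 28.1 CPM. Ndrg1, a stress-response protein, rose 2.99-fold and stood at 196, 289.8, 168 and 198 CPM within hypoxia. Replicate 2 was the highest there, as it was for Egln3, Hilpda and Bnip3. Vegfa, the main growth factor for blood vessels, stood at 112, 95.7, 144 and 105 CPM in normoxia and 228, 299.6, 198 and 252 in hypoxia (2.14-fold, adjusted p 6.3e-05). Rora, a nuclear receptor, rose 3.28-fold and Selenbp1, a selenium-binding methanethiol oxidase, 3.26-fold, the latter from a range of 17.7 to 53 to one of 80.9 to 149.8 CPM. Smaller rises were measured for Bhlhe40, a transcriptional repressor (1.73-fold), Ddit4, an inhibitor of mTOR (1.78-fold), Anxa2, a membrane-binding protein (1.69-fold), Kdm3a, a histone demethylase (1.58-fold), Narf (1.37-fold), Ero1l, an oxidase of protein folding (1.3-fold), and P4ha1, a collagen prolyl hydroxylase (1.27-fold), and P4ha2 rose 3.49-fold at 3.81 ± 1.06 CPM. Ankrd37 rose 1.61-fold.

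Not every HIF target moved that way. Pfkfb4, a regulator of glycolytic flux, read 64.3, 57.8, 77.2 and 72.1 CPM in normoxia and 47, 47.5, 45.6 and 49.4 in hypoxia and fell 1.43-fold without overlap (adjusted p 3.96e-04). Mxi1, a MYC antagonist, Higd1a, a respiratory chain assembly protein, and Ankzf1 showed no call, at 163 ± 6.92 against 162 ± 10.7, 21.1 ± 0.581 against 20.5 ± 0.834 and 25.7 ± 2.01 against 22.4 ± 1.9 CPM. The carbonic anhydrases Car9 (3.05 ± 0.842 against 4.08 ± 0.621 CPM, adjusted p 0.079) and Car12 (1.36 ± 0.68 against 2.24 ± 0.825, adjusted p 0.0998) were low and not called. Adm, the vessel hormone adrenomedullin, was too low to be tested, with 3 counts over the 4 normoxia libraries and 22 over the 4 hypoxia libraries (ratio 6.04 per TMM-scaled library size, as for all such ratios and bounds here, exact 95% interval 1.82 to 31.5, counting error only).

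Sequence before the start site was searched for the ACGTG and GCGTG cores that HIF binds, in list members called or not. RefSeq promoters (GRCm38.p6) were matched for 26 of the 29 HIF targets, and 22 of these (84.6%) held ACGTG or GCGTG on either strand in the 250 bases before the start, against 38.6% of 27025 promoters and 55.9% of 10024 promoters of tested genes. ACGTG alone stood in 17 (65.4%), against 16.6% and 21.7%. Of the glycolysis promoters 19 of 26 (73.1%) held either core. The 6 called HIF targets with the smallest p among the matched promoters that hold a core are shown. Hilpda, the strongest rise of the list, holds none and is not among them. Each runs from shortly before its first core to the last base before the start site, 5′ to 3′, with cores of either strand in capitals.
Ldha: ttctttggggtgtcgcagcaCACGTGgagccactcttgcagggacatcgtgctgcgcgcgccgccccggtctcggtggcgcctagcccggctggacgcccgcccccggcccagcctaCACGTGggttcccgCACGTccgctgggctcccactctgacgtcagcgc
Egln3: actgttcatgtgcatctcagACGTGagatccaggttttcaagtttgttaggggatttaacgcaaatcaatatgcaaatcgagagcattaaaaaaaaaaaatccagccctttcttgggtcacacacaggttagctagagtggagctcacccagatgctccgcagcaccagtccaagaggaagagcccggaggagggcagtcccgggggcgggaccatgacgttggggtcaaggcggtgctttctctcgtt
Pgk1: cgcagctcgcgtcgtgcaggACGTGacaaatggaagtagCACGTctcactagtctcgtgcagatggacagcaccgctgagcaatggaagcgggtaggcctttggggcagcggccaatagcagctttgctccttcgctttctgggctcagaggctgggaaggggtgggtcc
Slc2a1: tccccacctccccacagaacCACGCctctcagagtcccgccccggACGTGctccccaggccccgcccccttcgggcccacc
Rora: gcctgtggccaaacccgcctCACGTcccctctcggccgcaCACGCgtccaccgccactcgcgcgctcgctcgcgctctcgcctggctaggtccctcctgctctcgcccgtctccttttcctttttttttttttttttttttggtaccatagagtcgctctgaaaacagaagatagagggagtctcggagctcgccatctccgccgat
Bnip3: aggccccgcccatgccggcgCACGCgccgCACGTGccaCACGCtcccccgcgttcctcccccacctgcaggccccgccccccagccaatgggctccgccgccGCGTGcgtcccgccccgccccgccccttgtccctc
They lie at chr7:46845639-46845803 (plus strand), chr12:54203875-54204123 (minus), chrX:106186930-106187099 (plus), chr4:119108664-119108744 (plus), chr9:68653579-68653785 (plus) and chr7:138909507-138909643 (minus). Ldha and Bnip3 each carry 5 matches, counting both strands of the palindrome CACGTG, the last starting 34 and 35 bases before the start site. Pgk1, Slc2a1 and Rora carry 2 each, and Egln3 has 1, starting 229 bases before it. No core stood in this window of Hilpda, Vegfa, Mxi1 or Car12, which says only that these letters are not in those 250 bases. A match is a description of letters, not a measured binding site.

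Genes of nearly every step of glycolysis rose. Of 27 tested genes, 21 were called higher, 13 beyond 1.5-fold, and 2 lower, with a median log2 fold change of 0.79; 5 of the 27 are also on the HIF target list. Slc2a1, the widely expressed glucose transporter GLUT1, stood at 170.5, 173, 136 and 164 CPM in normoxia and 350.1, 373, 368 and 352 in hypoxia, 2.24-fold higher. Slc2a3 (GLUT3) rose 2.07-fold, from a range of 91.8 to 134 to one of 194 to 275 CPM. Among hexokinases, which trap glucose in the cell, Hk1 rose 1.33-fold, Hk3, the form typical of granulocytes, fell 1.21-fold, and Hk2 was not called (92.5 ± 14.1 against 109 ± 10.7 CPM, adjusted p 0.0902). The isomerase Gpi1 rose 1.73-fold. Of the phosphofructokinase subunits, Pfkl rose 1.28-fold and Pfkp 1.49-fold, and Pfkm was not called (adjusted p 0.0904). Pfkfb3, the regulator that drives flux forward, rose 1.77-fold, opposite to Pfkfb4.

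The enzymes after the split into triose phosphates rose as well, and they are abundant. Pkm, pyruvate kinase, stood at 1986, 2056, 2191 and 2076 CPM in normoxia and 5436, 5249, 5356 and 5271 in hypoxia, 2.56-fold higher (adjusted p 2.25e-08). Gapdh stood at 3838, 4095, 4306 and 4020.1 and at 8359.7, 8135, 7501 and 7695 CPM, 1.95-fold higher. Ldha, which turns pyruvate into lactate, stood at 976, 899, 908 and 978 and at 2445, 2059.9, 2417 and 2089 CPM, 2.4-fold higher. No hypoxia library reached down to a normoxia library in any of these genes, and the spread within a group was small beside the step. Pgk1 rose 2.4-fold (669 ± 71.7 to 1603 ± 59.3 CPM), Aldoa 1.77-fold, Tpi1 1.84-fold, Eno1 1.87-fold and Pgam1 1.55-fold. Slc16a3, the lactate exporter MCT4, stood at 243, 232, 273 and 240.4 CPM in normoxia and 691, 712, 674 and 698 in hypoxia, 2.81-fold higher. Slc16a1, the related MCT1, was not called (36.7 ± 9.47 against 49.1 ± 7.53 CPM). Per kilobase of exon, the most abundant enzyme in hypoxia was Gapdh at 1917 CPM per kb, followed by Aldoa at 1419 and Pkm at 1065. Minor isoforms rose as well (Aldoc 2.41-fold, Pgam2 2.16-fold, Eno3 1.64-fold, Ldhb 1.71-fold, Pfkfb2 1.41-fold); Pfkfb1 was not called (3.57 ± 0.556 against 2.71 ± 0.538 CPM). The call of Pfkfb2 was lost without normoxia replicate 2 or 4 or hypoxia replicate 2 or 4 (adjusted p 0.0531 to 0.0686). Pgk1, Gapdh and other glycolysis genes have processed pseudogenes, and how the counting split such reads is not stated.

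**Figure D2:**
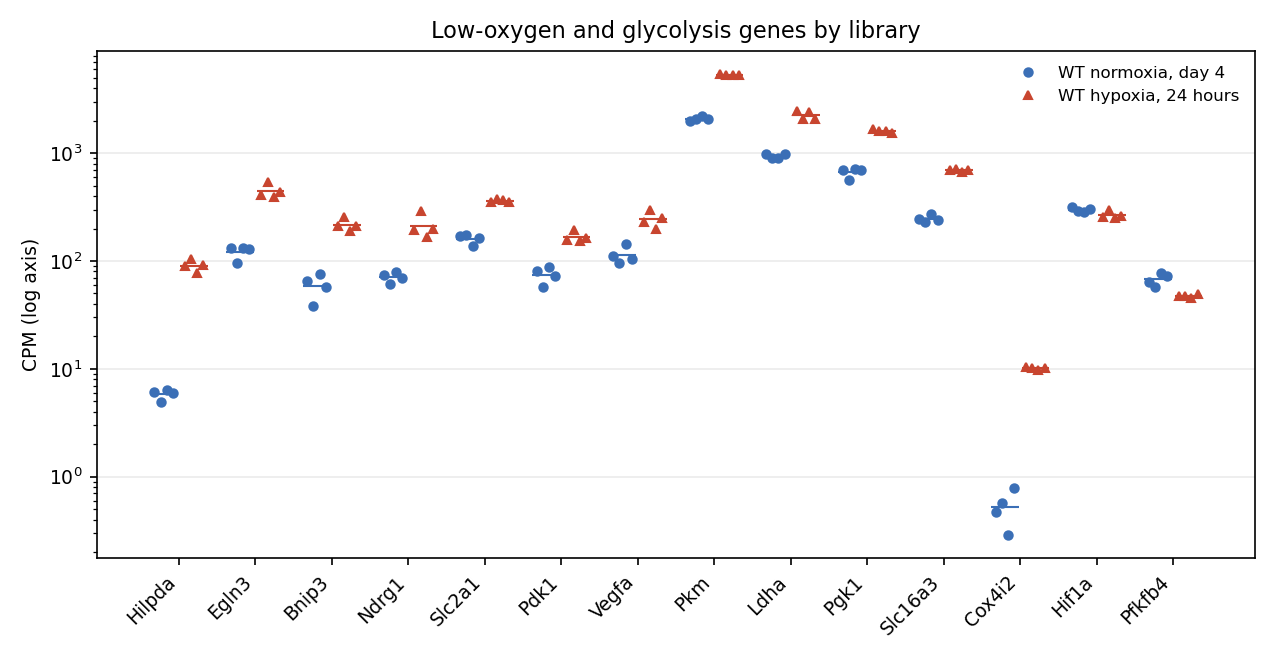
CPM of 14 low-oxygen and glycolysis genes in each WT library (log axis; blue circles, normoxia at day 4; red triangles, hypoxia at 24 hours; bars, group means, n = 4). For 12 genes every hypoxia library lies above every normoxia library, for Hif1a the groups overlap, and for Pfkfb4 every hypoxia library lies below.

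Genes of glycogen and lipid storage rose more often than they fell. Genes of pyruvate entry and the pentose phosphate pathway fell at a share near that of all tested genes (31.6% against 27.3%) and rose in 15.8% against 26%. Of 19 glycogen and lipid storage genes 10 rose and 2 fell (median log2 0.455). Gys1, glycogen synthase, rose 1.79-fold, from a range of 124 to 149.7 to one of 208 to 275 CPM. Pgm1, which links glucose to glycogen, rose 1.97-fold, and Ppp1r3d, which targets a phosphatase to glycogen, 2.1-fold. Plin2, the coat protein of lipid droplets, rose 1.65-fold beside Hilpda. Of 19 genes of pyruvate entry and the pentose phosphate pathway 3 rose and 6 fell (3 and 10 with library size alone; median -0.126). Pdk1, the kinase that closes the pyruvate dehydrogenase gate, read 81.3, 57.6, 88.2 and 72 CPM in normoxia and 158, 196, 154 and 163 in hypoxia, 2.24-fold higher, and Pdk2 rose 3.57-fold. Pdk4, a further such kinase too low to be tested, had 1 count over the normoxia libraries and 20 over the hypoxia libraries (ratio 16.5, exact interval 2.64 to 683). Dld, a subunit of the dehydrogenase, fell 1.34-fold and Mpc2, of the pyruvate carrier, 1.35-fold. Oxygen-dependent hydroxylases and demethylases gave 13 higher and 3 lower of 22 (9 and 3 with library size alone; median 0.328). The 3 lower calls became 0 without hypoxia replicate 1 or 3 and 1 without normoxia replicate 4 or hypoxia replicate 4. Kdm6b, a demethylase of histone H3 lysine 27, rose 3.33-fold and Plod2, a collagen lysyl hydroxylase, 4.49-fold.

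Nuclear genes of the respiratory chain fell by small steps. Of 79 nuclear subunits of complexes I to V, 41 were called lower and 3 higher, with a median log2 fold change of -0.232 against -0.0319 over all genes. Complex I gave 22 lower and 1 higher of 37 (median -0.307; 4 beyond 1.5-fold), complex III 7 and 0 of 10 (median -0.445), complex IV 5 and 0 of 12 (median -0.113), and complex V 6 and 2 of 16 (median -0.155; 10 and 0 with library size alone). In complex V the lower calls became 3 without hypoxia replicate 4, and the higher calls became 0 without hypoxia replicate 1 and 1 without normoxia replicate 1, 2 or 4. Ndufa1 fell most within complex I, 2.02-fold, from a range of 19.8 to 24.2 to one of 8.43 to 12.7 CPM. Ndufa13 fell 1.93-fold, Ndufb3 1.78-fold and Ndufs6 1.65-fold, and Ndufa10 was the 1 that rose (1.31-fold; named after its value was seen). The 22 lower members had groups that did not overlap, against 23.9% of all tested genes that lay below in this way.

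Low-oxygen forms of respiratory chain subunits rose from low levels, in a list that gave 5 higher and 2 lower of 10 (3 and 2 with library size alone; median 0.169). Cox4i2, the low-oxygen form of a cytochrome c oxidase subunit, stood at 0.473, 0.569, 0.288 and 0.783 CPM in normoxia and at 10.5, 10.2, 9.79 and 10.3 in hypoxia, 19.2-fold higher. Its usual form Cox4i1 was not called (172 ± 9.96 against 167 ± 13.5 CPM), and per kilobase it remained the more abundant in hypoxia, at 108 against 12.9 CPM per kb. Ndufa4, counted above with complex I but found in cytochrome c oxidase, fell 1.93-fold, from a range of 56.5 to 63.5 to one of 24.2 to 39.2 CPM, while its paralog Ndufa4l2 rose from a range of 0.0406 to 0.535 to one of 1.41 to 3.23. Lonp1, the protease that removes the usual subunit, rose 1.17-fold, and Iscu, an iron-sulfur scaffold, fell 1.42-fold.

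The 13 protein genes of the mitochondrial genome split, 7 higher and 5 lower (median 0.427), while their share of all counts overlapped (3.93% to 4.91% in normoxia, 4.06% to 5.01% in hypoxia; exact permutation p 0.857, two-sided). mt-Nd6, the 1 coded on the other strand, stood at 379, 419, 530.4 and 520.0 CPM in normoxia and 2047, 1874, 1799.8 and 1508 in hypoxia, 3.91-fold higher. mt-Atp6 rose 2.11-fold and mt-Atp8 1.87-fold. mt-Nd3 fell 2.07-fold, from a range of 369.8 to 401 to one of 153 to 217 CPM, and mt-Co1, the most abundant, 1.55-fold. These genes are cut from shared transcripts, and without a known strand setting reads of mt-Nd6 and of the opposite strand cannot be told apart. Citric acid cycle genes were lower in 8 of 23 cases and higher in 2 (16 and 0 with library size alone; median -0.188), led by Ogdh (1.37-fold lower) and Sdha (1.29-fold lower); Acly, which exports citrate carbon for lipid, rose 1.2-fold. Of 60 mitochondrial ribosomal proteins 31 fell and 1 rose (49 and 0 with library size alone; median -0.31). Fatty acid oxidation gave 7 lower and 2 higher of 20 (11 and 2 with library size alone, 4 lower without normoxia replicate 1, 4 and 4 without normoxia replicate 3; median -0.0971); Etfb, an electron carrier, rose 2.15-fold, and Cpt1a, the entry step, read 145 ± 13.4 CPM in normoxia and 164 ± 14.7 in hypoxia (adjusted p 0.0966).

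Immediate early genes, the fast transcription factors and phosphatases that follow a stimulus, were all called higher. Of these 23, 20 rose beyond 1.5-fold, with a median log2 fold change of 1.93, and no hypoxia library overlapped a normoxia library in any of them (23.6% of all tested genes lay that way). With library size alone 22 were called. Nr4a1 (ENSMUSG00000023034, chromosome 15, bases 101254269 to 101274795), an orphan nuclear receptor, stood at 13.9, 18.2, 18 and 16.6 CPM in normoxia and 334, 389.8, 336 and 377 in hypoxia, 21.5-fold higher (adjusted p 4.73e-11). Nr4a2 rose 44-fold, from a range of 0.789 to 1.1 to one of 26.6 to 60.2 CPM. Fosb, an AP-1 subunit, stood at 18.3, 19.9, 24 and 12.7 CPM and at 227, 417, 277 and 325, 16.6-fold higher. The hypoxia libraries differed in height, with replicate 2 highest for Nr4a1, Nr4a2 and Fosb, but never reached down to normoxia. Jun rose 4.02-fold, Klf6 3.8-fold, Egr2 6.5-fold, Egr3 7.83-fold, Atf3 5.58-fold and Btg2 2.79-fold.

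Chemokines and cytokines rose in most cases. Of 25 tested chemokines and receptors 20 were higher, 16 beyond 1.5-fold, and 1 lower (median log2 1.39). The neutrophil attractant Cxcl2 stood at 10.3, 18.1, 21.4 and 14.1 CPM in normoxia and 140.4, 130.2, 129 and 149 in hypoxia, 8.59-fold higher. Cxcl1 rose 16.4-fold to 8.55 ± 1.35 CPM and Cxcl3 5.78-fold, and the monocyte and T cell attractant Ccl4 rose 6.22-fold to 76.8, 72.1, 75.2 and 74.8 CPM. Cxcr4, the receptor that holds myeloid cells in the marrow, read 136, 127, 145 and 138 CPM and 326, 316, 279 and 329.6, 2.29-fold higher. Ppbp and Pf4, 2 platelet chemokines on this list, rose 26.4-fold and 22.4-fold and are described again with the megakaryocyte markers.

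Of 24 cytokine genes 16 rose and 4 fell (median log2 1.17). Il1b, the inflammatory cytokine interleukin-1 beta, stood at 25, 22, 32.3 and 23.1 CPM in normoxia and at 278, 298, 255 and 304 in hypoxia, 11.1-fold higher (adjusted p 1.19e-09). Osm, oncostatin M of the IL-6 family, stood at 35.7, 41.9, 38.5 and 39 and 326, 366, 352 and 363 CPM, 9.07-fold higher. Il6 rose 16.6-fold, from a range of 1.89 to 2.93 to one of 33.6 to 43.5 CPM, and Lif, of the same family, 11.8-fold. Csf1, the macrophage growth factor, rose 2.31-fold, Tnfsf14 2.47-fold and Mif, a glucose-regulated cytokine, 1.75-fold. The 4 that fell were Tnf, Il27, Il16 and Il1rn, named after their values were seen. Tnf, tumor necrosis factor, went from a range of 52.2 to 93.1 to one of 23.8 to 40.3 CPM (1.86-fold lower, adjusted p 0.00422), and Il1rn, the antagonist of interleukin-1, from a range of 240.1 to 298 to one of 163 to 199.6. Il10, the suppressive interleukin-10, had 2 counts over the normoxia libraries and 21 over the hypoxia libraries (ratio 8.65, exact interval 2.11 to 76.1).

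The IL-6 and STAT3 pathway rose in 15 of 26 members and fell in 5 (median 0.623). Stat3 rose 1.5-fold, from a range of 168 to 213 to one of 254 to 313 CPM, and its feedback inhibitor Socs3 1.61-fold. Pim1, a kinase induced by STAT factors, rose 2.02-fold, the survival gene Mcl1 1.95-fold and the interleukin-4 receptor Il4ra 1.9-fold. Myc was not called, with 97.6, 185, 69.7 and 135 CPM in normoxia and 110.0, 89.9, 109 and 109 in hypoxia. Cebpb, a driver of emergency granulopoiesis, was not called either (439 ± 52.2 against 518 ± 98.4 CPM). NF-kappaB feedback genes gave 10 higher and 6 lower of 19 (7 and 7 with library size alone; median 0.226), with Nfkbiz 9.35-fold and Tnfaip3 4.79-fold higher, Nfkb2 1.69-fold and Relb 1.88-fold lower.

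Genes tied to suppression of T cells went in both directions: 14 of 27 rose and 8 fell (5 fell without hypoxia replicate 4; median 0.276). Ptgs2 (COX-2), the inducible step of prostaglandin synthesis, stood at 0.75, 0.65, 0.782 and 0.659 CPM in normoxia and 50.7, 68.5, 46.1 and 61.7 in hypoxia, 79.4-fold higher (adjusted p 1.3e-10). Cd274, which encodes PD-L1, stood at 37.4, 32.4, 37.6 and 38.7 and 70.8, 98.7, 68.3 and 78.2 CPM, 2.16-fold higher. Trem1, an amplifying receptor of neutrophils and monocytes, rose 8.05-fold and Wfdc17 4.62-fold. S100a8, a subunit of the granulocyte protein calprotectin, fell 2.02-fold, from a range of 5892 to 7155 to one of 2782 to 4219.5 CPM, and its partner S100a9 1.33-fold with overlapping groups (adjusted p 0.0184). That call was lost without normoxia replicate 3 or hypoxia replicate 2 or 4 (adjusted p 0.052 to 0.0655). Checkpoint ligands and VISTA binding partners rose in 13 of 15 members and fell in 1, which is Vsir, with a median log2 of 0.562 and 3 beyond 1.5-fold. Selplg (PSGL-1), a VISTA partner, rose 1.66-fold, Havcr2 (TIM-3) 3.68-fold at 7.76 ± 2.11 CPM, and the "do not eat" signal Cd47 1.39-fold with its receptor Sirpa 1.39-fold.

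The arginine-consuming genes Arg1 and Nos2 both rose, with a wide spread in normoxia, and 5 of the list's 13 genes were higher and 3 lower (median 0.135). Arg1, which breaks arginine down to ornithine, stood at 23.9, 6.06, 48.7 and 24 CPM in normoxia and 168, 179.8, 197 and 109 in hypoxia. Replicate 2 was lowest and replicate 3 highest among the normoxia libraries, all 4 lay below hypoxia, and the rise was 6.37-fold (log2 2.67 ± 0.519, adjusted p 0.00301). Nos2, the inducible nitric oxide synthase, stood at 7.18, 0.691, 7.86 and 3.42 CPM and at 47.6, 76.6, 37.1 and 62.6, 11.7-fold higher, again with normoxia replicate 2 lowest. Slc7a2, the arginine transporter of activated macrophages, rose 4.46-fold, from a range of 23.6 to 32.5 to one of 108 to 185 CPM, while Slc7a1, the widely expressed transporter, was not called (105 ± 27.6 against 92.7 ± 12). Ass1, which remakes arginine from citrulline, fell 2.26-fold, from a range of 259 to 305 to one of 112 to 136 CPM, and its partner Asl was not called (31.1 ± 0.605 against 31.9 ± 0.582 CPM). In the proline branch Pycr1 rose 1.996-fold, Aldh18a1 fell 1.33-fold and Oat fell 1.21-fold. Arg2, Nos3 and Gatm were not called (adjusted p 0.576, 0.316 and 0.147), and Ddah2 rose 1.77-fold, to 1.19 to 1.63 CPM.

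Among polyamine genes, downstream of ornithine, most showed no call. Of 17 tested, 3 were called higher and 2 lower, a share of 17.6% and 11.8% beside 26% and 27.3% of all genes, and with library size alone 2 and 3. The list's median was 0.0608, and it changed sign with library size alone and with GC content offsets. The 2 lower calls became 1 without normoxia replicate 1, 2 or 4 or hypoxia replicate 2 or 4. Odc1, the rate-limiting step, stood at 101, 129.5, 62.8 and 109.5 CPM in normoxia and 126, 92.9, 133 and 114 in hypoxia, with overlapping groups (log2 0.21 ± 0.188, adjusted p 0.372). Srm, spermidine synthase, was also uneven, at 64, 104, 39.6 and 83.3 CPM and 69.8, 42.4, 81.9 and 63.8 (adjusted p 0.621). Oaz2, an antizyme, rose 1.56-fold, Atp13a2, a lysosomal polyamine exporter, 1.58-fold and Smox, spermine oxidase, 1.43-fold, the last with overlap. Amd1, which supplies the aminopropyl group, fell 1.31-fold and Azin1, an antizyme inhibitor, 1.24-fold, both with overlap. The call of Smox was lost without normoxia replicate 1, 2 or 4 or hypoxia replicate 1, 2 or 4 (adjusted p 0.0501 to 0.13) and that of Azin1 without normoxia replicate 1, 2 or 4 or hypoxia replicate 2 or 4 (adjusted p 0.0501 to 0.0736). Sms, Sat1, Sat2, Paox, Azin2, Oaz1, Dhps, Dohh, Eif5a and Atp13a3 were not called, with fold changes between 0.806 (Dohh) and 1.55 (Sat2).

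**Figure D3:**
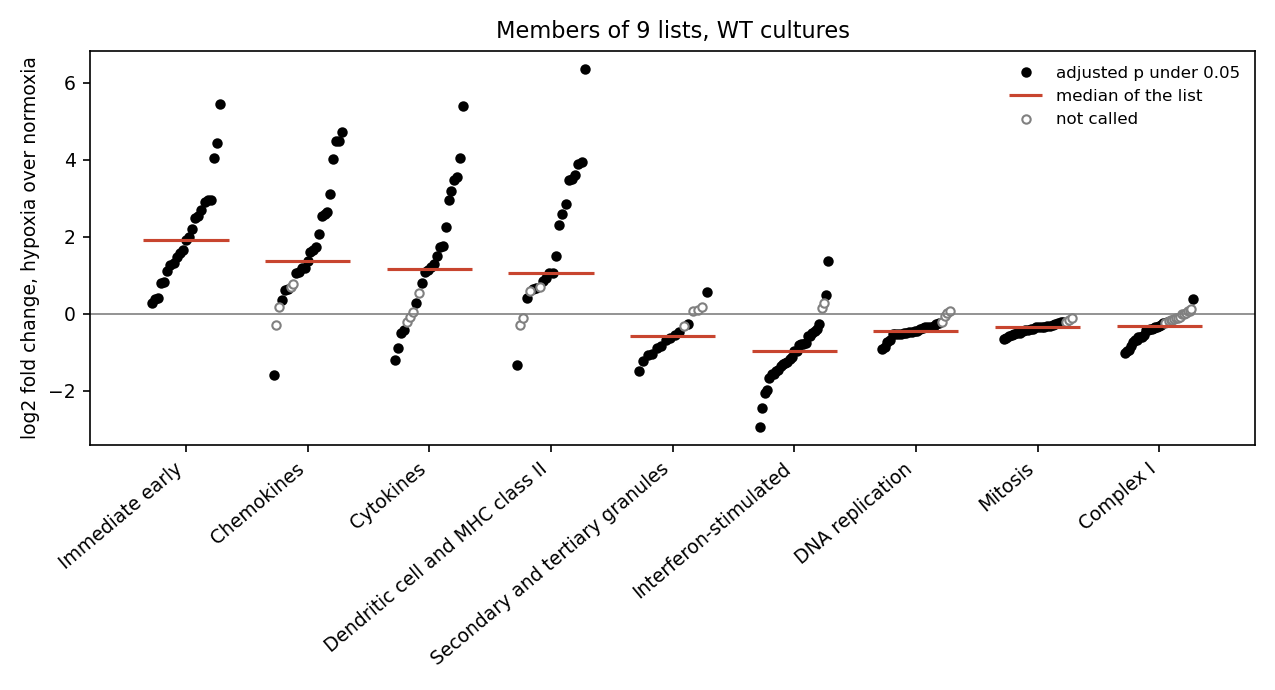
Log2 fold change of every tested member of 9 lists (hypoxia over normoxia, WT, n = 4 each; filled, adjusted p under 0.05; open, not called; red bar, median of the list). Immediate early genes lie wholly above zero (median 1.93), interferon-stimulated genes mostly below (median -0.973), and DNA replication, mitosis and complex I genes in a narrow band below zero (medians -0.437, -0.348 and -0.307).

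Interferon-stimulated genes fell. Of 31 tested, 27 were called lower, 16 of them beyond 1.5-fold, and 2 higher, with a median log2 fold change of -0.973. Oas1a (ENSMUSG00000052776, chromosome 5, bases 120896256 to 120907521), which makes the signal that activates RNase L, stood at 31.9, 30.8, 36.1 and 28 CPM in normoxia and 11.1, 10.9, 11.2 and 9.89 in hypoxia, 2.94-fold lower (adjusted p 9.71e-08). Oas1a has near copies in the mouse genome, so its reads may be split. Oas3 stood at 38, 40.9, 45.5 and 40.8 and 14.5, 17.8, 12.1 and 16.3 CPM, 2.73-fold lower, and Oas2 fell 4.13-fold. Sensors of foreign nucleic acid fell as well, Ddx58 (RIG-I) from a range of 57.9 to 61.8 to one of 22.1 to 28.7 CPM (2.37-fold) and Zbp1 from a range of 31.8 to 33.7 to one of 13.4 to 16.1 (2.25-fold). Usp18, a brake on the interferon receptor, fell 5.49-fold and Cmpk2, a mitochondrial nucleotide kinase, 2.41-fold. Irf1, a factor that drives such genes, fell 1.96-fold, from a range of 35.1 to 41.5 to one of 18.4 to 21.3 CPM. The 2 that rose are Cxcl10 (2.61-fold) and Gbp3 (1.41-fold), both named after their values were seen, and the call of Gbp3 was lost without normoxia replicate 2 or 4 or hypoxia replicate 1 or 2 (adjusted p 0.0514 to 0.0869). In 25 of the 27 that fell the groups did not overlap (23.9% of all tested genes lay below without overlap).

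The promoters of these genes hold the interferon response element more often than others. Its core, GAAA followed after any 2 bases by GAAA again and searched on both strands, stood in 13 of 25 matched members (52%) within 250 bases before the start, against 3.04% of 27025 promoters and 2.86% of those of tested genes. The 3 called members with the smallest p that hold it are shown to the start site, with the matches in capitals.
Oas1a: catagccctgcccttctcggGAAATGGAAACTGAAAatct
Oas3: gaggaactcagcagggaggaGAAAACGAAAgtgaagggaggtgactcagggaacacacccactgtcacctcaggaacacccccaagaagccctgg
Isg15: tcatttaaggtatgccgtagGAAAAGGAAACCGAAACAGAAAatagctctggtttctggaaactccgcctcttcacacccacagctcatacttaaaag
They lie at chr5:120907526-120907565, chr5:120777660-120777754 and chr4:156200819-156200916, all on the minus strand (GRCm38.p6). Oas1a holds 2 overlapping matches, starting 20 and 14 bases before the start site, and Isg15, a ubiquitin-like protein, 3 overlapping ones from 78 bases before it. Isg15, named for its promoter, fell 3.19-fold, from a range of 2.96 to 4.2 to one of 0.728 to 1.39 CPM. As above, a match is a description of letters only.

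Genes of late granules fell, and genes of early granules and mature receptors went both ways. The secondary and tertiary granule list, made late in neutrophil development, was lower in 11 of 16 members and higher in 1 (median -0.583). Chil3, the chitinase-like protein Ym1, stood at 8250.5, 7944, 8909.9 and 9260.0 CPM in normoxia and 3422, 3097, 2999 and 2843 in hypoxia, 2.78-fold lower. Mmp9, gelatinase, fell 2.35-fold, Camp, the cathelicidin precursor, 2.1-fold, Hp, haptoglobin, 2.04-fold, Lcn2, the iron-trapping lipocalin, 1.86-fold and Ltf, lactoferrin, 1.78-fold. Ngp, the most abundant of the list, was not called (11962 ± 1736 against 12801 ± 1686 CPM), nor were Cd177 and Mmp8 (adjusted p 0.616 and 0.388). Primary granule genes, made earlier, gave 3 higher and 1 lower of 9 (5 higher without normoxia replicate 3; median 0.184): Srgn, the granule proteoglycan, rose 2.7-fold, Mpo, myeloperoxidase, 1.75-fold and Ctsg 1.42-fold, and Elane and Prtn3 were not called.

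Receptors of mature neutrophils were higher in 8 and lower in 6 of 17 cases (the list's median of 0.118 changes sign with library size alone). Ly6g, the surface mark of mouse granulocytes, stood at 56.3, 54.1, 95.8 and 78.1 CPM in normoxia and 29.2, 27.2, 22 and 25.5 in hypoxia, 2.73-fold lower. The formyl peptide receptors fell, Fpr2 2.79-fold and Fpr1 2.04-fold, while C5ar1, the complement receptor, rose 2.64-fold, Clec4e 1.93-fold and Il1r2, a decoy for interleukin-1, 1.72-fold. Csf3r, the G-CSF receptor, was not called (182 ± 48.2 against 198 ± 53.3 CPM), and Cxcr2, the main neutrophil chemokine receptor, rose 1.55-fold with overlapping groups (adjusted p 0.0495), a call lost without normoxia replicate 1, 2 or 4 or hypoxia replicate 1, 2, 3 or 4 (adjusted p 0.0529 to 0.155). The NADPH oxidase, which makes superoxide from oxygen, gave 5 lower and 1 higher of 8 (median -0.275): Hvcn1, its proton channel, fell 1.65-fold, Ncf1 1.49-fold, Ncf4 1.41-fold, Cybb 1.21-fold and Cyba 1.22-fold. The call of Cyba was lost without hypoxia replicate 4 (adjusted p 0.0535). Beside these, the summed secondary and tertiary granule markers were 39452 to 48053 CPM in normoxia and 29383 to 34700.2 in hypoxia (exact permutation p 0.0286, two-sided, the smallest that 4 against 4 allows; 0.0405 adjusted over 17 library-level values). The summed mature neutrophil receptors were higher, at 2004 to 2532 CPM in normoxia and 2841 to 3534 in hypoxia (exact permutation p 0.0286, 0.0405 adjusted). The summed primary granule markers overlapped, at 1919 to 2586 CPM and 2553 to 3344 (exact permutation p 0.0571, 0.0747 adjusted).

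Within the monocyte and macrophage list 16 of 32 rose and 6 fell (median 0.595), and the summed level of the list overlapped (10151 to 14690.0 CPM in normoxia, 10462 to 13879 in hypoxia; exact permutation p 0.743, two-sided). Cd14, the coreceptor for endotoxin, rose 5.005-fold, from a range of 90.7 to 169 to one of 514 to 778 CPM. The complement genes C1qa and C1qb rose 11.1-fold and 8.28-fold, to 5.58 ± 1.19 and 29.9 ± 6.89 CPM, Fn1, fibronectin, 3.49-fold, and Mrc1, the mannose receptor, 4.82-fold. Csf1r, the receptor for CSF1, fell 1.23-fold with overlap (adjusted p 0.0296), a call lost without normoxia replicate 1 or 3 or hypoxia replicate 1, 3 or 4 (adjusted p 0.0556 to 0.109). Ly6c2 fell 1.2-fold, and Spp1, osteopontin, rose 1.58-fold with overlap. Ly6c1 fell 3.03-fold but stood at 166, 170.5, 395 and 147 CPM in normoxia, where replicate 3 was far above the others. Ly6c1 and Ly6c2 are near copies, so reads may be split between them. Myeloid transcription factors gave 11 higher and 4 lower of 23 (median 0.238). Klf4, a monocyte factor, rose 3.15-fold, Runx1 2.14-fold, Irf8, which favors monocytes and dendritic cells, 1.56-fold, and Cebpd fell 1.76-fold.

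Genes of antigen presentation through MHC class II rose steeply. The dendritic cell and MHC class II list gave 17 higher and 1 lower of 22 (median 1.06). H2-Aa stood at 10.3, 5.28, 17.6 and 7.09 CPM in normoxia and 129, 197, 118 and 158 in hypoxia, 14.9-fold higher, and H2-Ab1 at 11.7, 7.97, 23.6 and 10.7 and 143, 189, 127 and 154 CPM, 11.4-fold higher. Ciita, the master activator of these genes, rose 15.3-fold, from a range of 0.732 to 2.31 to one of 17.4 to 30.8 CPM, and Cd74, the invariant chain, 4.92-fold. In each of these genes replicate 3 was highest among the normoxia libraries and replicate 2 highest among the hypoxia libraries. H2-Eb1, a further MHC class II chain, rose 12.2-fold, from a range of 2.85 to 12 to one of 64.1 to 103 CPM. Itgax (CD11c) rose 2.82-fold and Fscn1, a cytoskeletal gene of mature dendritic cells, 7.21-fold. Flt3, the receptor of dendritic cell precursors, was almost absent in normoxia (0, 0, 0.165 and 0 CPM) and stood at 4.38, 4.05, 2.99 and 3.54 CPM in hypoxia. Siglech, a plasmacytoid dendritic cell gene, is listed in the hypoxia table only, with 393 counts over the 4 WT libraries, at least 108-fold above a floor of 3 counts over the 4 normoxia libraries. MHC class I genes gave 2 higher and 4 lower of 13 (0 and 4 with library size alone, 4 higher without normoxia replicate 3; median 0.00864, below zero with library size alone and with GC content offsets).

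Most cell division genes were lower, by small steps. Of 26 mitosis genes 23 fell and none rose (median log2 -0.348), of 26 DNA replication genes 22 fell and none rose (median -0.437), and of 19 DNA repair genes 15 fell and none rose (median -0.49). Only 1 replication and 1 repair gene passed the 1.5-fold test. Mki67, the proliferation antigen, read 834, 906, 669 and 889 CPM in normoxia and 626, 609, 689 and 702 in hypoxia, 1.26-fold lower with overlapping groups. Cdc6, a loader of the replicative helicase, fell 1.89-fold, Mcm10 1.8-fold and Gins1 1.66-fold, from a range of 18.1 to 19.6 to one of 9.83 to 12.2 CPM. Aurka, a spindle kinase, fell 1.53-fold and Ttk 1.57-fold, and the repair genes Palb2 and Fanci fell 1.75-fold and 1.73-fold. Cdkn1a, the cell cycle inhibitor p21, rose 3.47-fold, from a range of 118 to 138 to one of 371 to 518 CPM, Btg1, an antiproliferative gene, 4.27-fold, and Pmaip1, a cell death gene, 2.21-fold. Cytosolic ribosomal proteins gave 23 higher and 13 lower of 72 (14 and 20 with library size alone, which also turns the sign of the median of 0.0947), and their share of counts overlapped, at 3.58% to 3.94% and 3.57% to 4%. Rps28 stood apart among them, 2.58-fold lower. Ribosomal protein genes have many pseudogenes, which share their reads.

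Stress pathways were mixed. Endoplasmic reticulum stress genes gave 11 lower and 3 higher of 23 (median -0.224; 7 lower without normoxia replicate 1 or hypoxia replicate 4, 6 without normoxia replicate 2), with Creld2 1.7-fold lower and Ppp1r15a, which restarts translation, 4.59-fold higher. The ATF4 and amino acid list split 12 to 9 of 31 (9 to 12 with library size alone; median 0.135), with Vldlr 9.17-fold and Ddit3 1.8-fold higher and Mthfd2, of mitochondrial one-carbon metabolism, 1.63-fold lower. In the iron list, 5 higher and 7 lower of 15 (median -0.186), Cp, the ferroxidase ceruloplasmin, fell 9.39-fold, from a range of 17.8 to 25.7 to one of 1.5 to 3.04 CPM, Slc11a1, the phagosomal metal pump, 1.999-fold and Slc40a1, the iron exporter, 1.69-fold, while Slc39a14 rose 2.27-fold.

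Summed markers of cells other than neutrophils and monocytes were higher in hypoxia for every such list. The summed mast cell and basophil markers were 45.3 to 65.2 CPM in normoxia and 520 to 804 in hypoxia, the eosinophil markers 97.8 to 125.1 and 1201 to 1897, and the erythroid and megakaryocyte markers 95.8 to 174 and 315 to 448. Stem and progenitor markers were 242 to 260 CPM in normoxia and 477 to 580 in hypoxia, stroma and endothelium 77.9 to 95.9 and 181 to 208, B and plasma cells 40.8 to 62 and 102 to 123, and T and NK cells 21.4 to 27.7 and 52.6 to 76.4. None of these groups overlapped (exact permutation p 0.0286 each, two-sided, 0.0405 adjusted). The rise of the T and NK sum lay mostly in Il7r alone, given below. By gene, 10 of 11 tested mast cell and basophil markers rose (median log2 4.77), 8 of 9 eosinophil (median 5.62), 9 of 10 erythroid and megakaryocyte (median 4.75), 9 of 12 stem and progenitor (median 1.26), 6 of 6 stroma (median 1.32) and 5 of 5 B and plasma cell markers (median 1.13), and none fell but 1 stem cell marker, Prom1 (1.5-fold). These lists hold 15, 9, 14, 13, 13 and 14 markers in that order. The expression filter keeps a gene that is expressed in 1 condition alone. Markers near 0 in normoxia were therefore tested only where hypoxia was high, and these counts and medians lean toward rises. For example, markers averaging at least 1 CPM were 7 in normoxia and 10 in hypoxia for mast cells and basophils, and 4 and 9 for the erythroid and megakaryocyte list. Only 4 of 19 T and NK markers could be tested, of which 2 rose and Cd28 fell 1.35-fold with overlap, a call lost without normoxia replicate 2 or 4 or hypoxia replicate 3 or 4 (adjusted p 0.0531 to 0.0843). The 2 higher calls became 1 without normoxia replicate 1 or 2 or hypoxia replicate 1, 3 or 4, and with library size alone. Epx, eosinophil peroxidase, stood at 9.39, 6.99, 10.6 and 6.26 CPM in normoxia and 646, 657, 898 and 1117 in hypoxia, 99.8-fold higher, the largest rise among genes whose log2 CPM averaged 4 or more. Prg2, the major basic protein, rose 64-fold, from a range of 4.71 to 8.8 to one of 366 to 544 CPM. The basophil protease Mcpt8 rose 49.1-fold and Prss34 46.7-fold to 208 ± 41.3 CPM, Cpa3, a mast cell and basophil protease, 63-fold and Gata2, their shared transcription factor, 66.8-fold. Not every marker moved: Kit (22.7 ± 4.15 against 27 ± 2.98 CPM) and Siglecf (14.5 ± 4.29 against 14.7 ± 0.605) were not called, and the near copies Ear2 and Ear6 rose 1.76-fold and 1.58-fold.

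**Figure D4:**
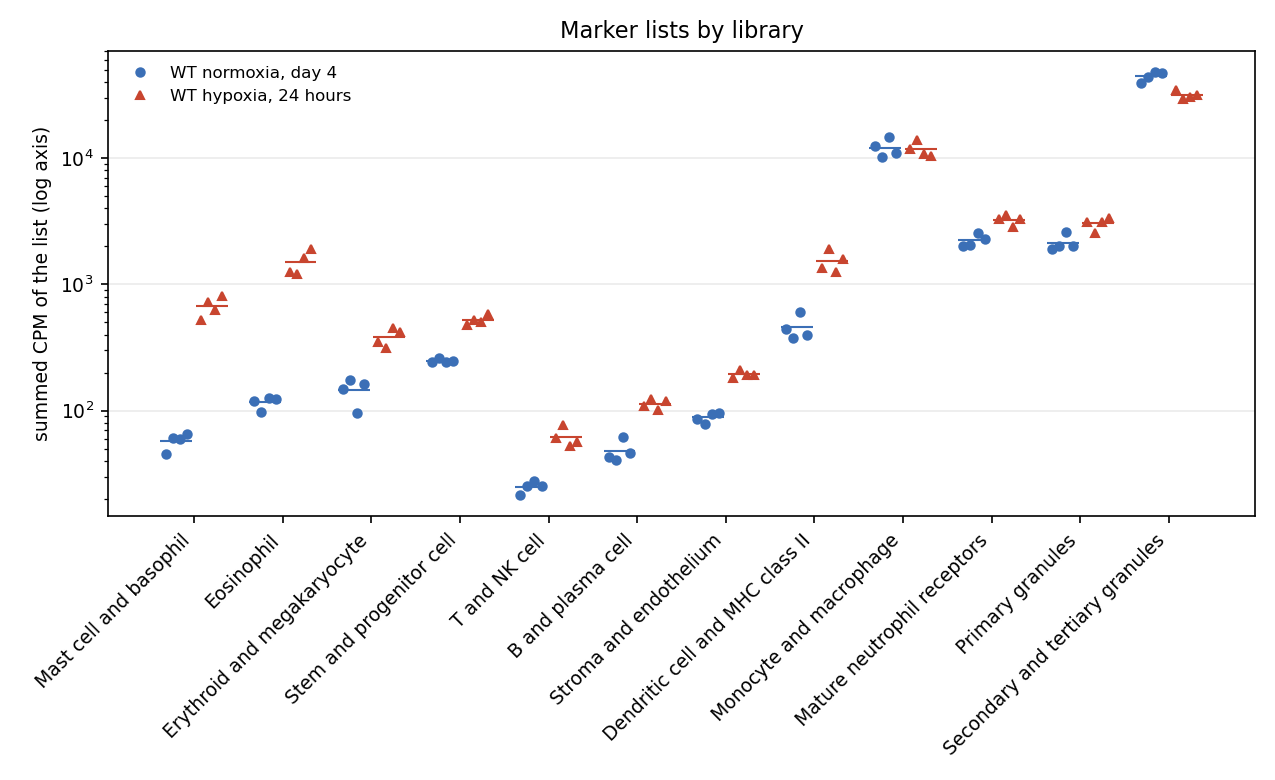
Summed CPM of 12 marker lists in each WT library (log axis; blue circles, normoxia; red triangles, hypoxia; bars, group means, n = 4). Mast cell and basophil markers step from 45.3 to 65.2 in normoxia up to 520 to 804 in hypoxia and eosinophil markers from 97.8 to 125.1 up to 1201 to 1897, monocyte and macrophage sums overlap, and secondary and tertiary granule sums lie lower in hypoxia.

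Several defining markers had no recorded count in the WT normoxia libraries and some in the hypoxia libraries. Slc4a1 of red cells, Cd3e, Cd8a, Zap70, Ncr1 and Eomes of T and NK cells, Pax5, Ebf1 and Rag1 of B cells, and Cma1 and Tpsab1 of mast cells were at 0 in normoxia, and Gzma was at 0 in both conditions. Pax5 had 110 counts over the 4 hypoxia libraries (at least 30.2-fold above the floor of 3 counts over 4 libraries), Ebf1 50 and Cd3e 17. Ncr1 had only 5, and Eomes and Tpsab1 4 each, close to that floor. Not every untested member of these lists rose. Cd3d had 23 counts in normoxia and 22 in hypoxia (ratio 0.788, exact interval 0.419 to 1.48). Vpreb1 of B cells had 5 and 6 (ratio 0.989, exact interval 0.251 to 4.1). Hba-a1, an alpha globin, had 1 count in normoxia and 3106 in hypoxia, a ratio per scaled library size of 2560 (exact 95% interval 459 to 101000), and Hba-a1 and Hba-a2 are near copies. Within hypoxia Hba-a1 was uneven, at 11.6, 19.1, 34.3 and 38.3 CPM. The megakaryocyte genes Itga2b and Pf4 rose 27.4-fold and 22.4-fold, the stem cell gene Cd34 7.37-fold, and Il7r, of the T and NK list, 22.2-fold to 37.6 ± 10.5 CPM. The summed T and NK markers averaged 24.9 CPM in normoxia and 61.6 in hypoxia, so most of that rise lay in Il7r. Some of the cytokine and chemokine rises are genes these cells are known to make (Il13 by basophils, 42.1-fold higher, Pf4 and Ppbp by megakaryocytes), and the part of the added markers in those rises was not tested.

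Calls in the remaining lists ran from 3 of 20 members (ribosome biogenesis) to 10 of 13 (prostaglandin and leukotriene genes). Sterol synthesis gave 6 higher and 4 lower of 27 (2 and 7 with library size alone, which also turns the sign of the median of 0.0481), with Insig1, a feedback inhibitor of it, 1.56-fold higher and Mvd 1.33-fold lower. Fatty acid synthesis gave 0 higher and 2 lower of 12 (median -0.0731; 6 lower with library size alone, 4 without normoxia replicate 3, and 2 higher without normoxia replicate 1 and 1 higher without normoxia replicate 3 or hypoxia replicate 1), Me1, malic enzyme, 1.97-fold and Fads1, a desaturase, 1.24-fold. Heat shock genes gave 3 and 3 of 14 (median -0.0717; 1 and 4 with library size alone), Hsp90ab1 1.45-fold higher and Hsph1 2.11-fold lower. NRF2 targets gave 3 higher and 5 lower of 19 (1 and 11 with library size alone; median -0.0773), Sod2, the mitochondrial superoxide dismutase, 1.84-fold lower and Hmox1, heme oxygenase, 1.33-fold higher. Among prostaglandin and leukotriene genes, 5 higher and 5 lower of 13 (median -0.172), Ptgs1 (COX-1) fell 1.69-fold, opposite to Ptgs2, and Ptges 1.65-fold, while Alox15, an eosinophil and macrophage lipoxygenase, rose 12.5-fold. In mitophagy and autophagy, 7 higher and 2 lower of 15 (median 0.304), Pink1 rose 2.04-fold and Sqstm1 1.45-fold beside Bnip3. Of the pH genes, 3 higher and 1 lower of 9 (median 0.42), Bsg, the chaperone of the lactate exporter, rose 1.84-fold and Car2, a cytosolic carbonic anhydrase, fell 2.51-fold. Ribosome biogenesis gave 3 higher and 0 lower of 20 (2 and 2 with library size alone, 5 lower without normoxia replicate 3 and 2 without hypoxia replicate 3; median -0.122), Ncl 1.92-fold and Npm1 1.35-fold higher, and cell cycle arrest and apoptosis genes 7 and 6 of 19 (median 0.0664, below zero with library size alone and with GC content offsets). Of 6 tested canonical histone genes 3 rose and none fell (median 0.734), Hist1h1c, a linker histone, 5.38-fold from a range of 11.7 to 19.4 to one of 72.3 to 90.8 CPM, Hist1h2bc 2.38-fold and Hist1h1e 2.17-fold, the last at 0.755 ± 0.187 CPM in hypoxia.

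Outside the lists, the 20 largest rises among genes whose log2 CPM averaged 4 or more included Rgs1, a damper of chemokine signals (4.14, 2.76, 6.42 and 3.13 CPM in normoxia, 83.8, 119, 86.7 and 76.9 in hypoxia), Emp1, a membrane protein (19.4-fold), Trib1, an adaptor that promotes breakdown of C/EBP alpha (11.4-fold), Adgrg1, an adhesion receptor (11.3-fold), Cd69, an early activation marker (10.8-fold), and Anpep, the aminopeptidase CD13 (9.43-fold). The rest of the 20 are list members named above: Epx, Prg2, Prss34, Nr4a1, Fosb, Hilpda, H2-Aa, H2-Eb1, H2-Ab1, Il1b, Nfkbiz, Osm, Cxcl2 and Trem1. The 20 largest falls were smaller, from 3.25-fold to 2.38-fold. Thy1, a surface glycoprotein, stood at 273, 378, 320.2 and 290.5 CPM in normoxia and 84.1, 82.2, 103 and 126 in hypoxia, 3.19-fold lower. Ifnlr1, a chain of the interferon lambda receptor, fell 3.25-fold, Gja5, a connexin, 3.22-fold, Arl5c 2.9-fold, Hivep3 2.77-fold and Pnp2, a purine phosphorylase, 2.63-fold. Zfp217 fell 2.58-fold with tight groups (164, 156, 164 and 156 against 58.5, 65, 63.4 and 60.9 CPM), Dclre1b, a telomere nuclease, 2.52-fold, Ptgir, the prostacyclin receptor, 2.46-fold, Chil1 2.43-fold, Cmklr1, the chemerin receptor, 2.4-fold, Lpcat2, which makes platelet-activating factor, 2.38-fold, and Myl10 2.5-fold.

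Replicates varied by a median coefficient of variation of 8.3% in normoxia and 7.65% in hypoxia over 7424 genes. The most variable genes in normoxia were Arg1 (68.3%), Ccl22 (59.2%) and Ly6c1 (53.5%), and Arg1 and Ly6c1 are described above. In hypoxia Kcnn3 varied most (36.4%). Ccl22 and Kcnn3 are named for that rank alone.

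The KO cultures give the same contrast in other libraries, since they too have 4 normoxia and 4 hypoxia libraries. Across 16 culture libraries 7899 genes were called in WT, 7732 of these (97.9%) had the same direction in KO and 6369 were also called there. The same shares over all genes are not given here. Oxygen, time point and count table differ together in the KO libraries too, so this overlap does not tell them apart. The difference between the WT and KO responses was called for 73 of 15293 genes (0.477%), 44 with the WT response above (0.288%) and 29 below (0.19%), and 1226 had an unadjusted p under 0.05. Of 1028 list members in that fit, 7 differed. The MHC class II genes Ciita and H2-Ab1 rose more in WT: Ciita changed by a log2 of 3.94 in WT and 1.23 in KO (difference 2.71 ± 0.459, adjusted p 0.0138), and H2-Ab1 by 3.51 and 1.06 (difference 2.45 ± 0.487, adjusted p 0.0411). For H2-Aa, H2-Eb1 and Cd74 the difference did not pass (adjusted p 0.0682, 0.0642 and 0.165). Ccl17, an attractant made by dendritic cells, rose by 1.06 in WT and went by -0.96 in KO (adjusted p of the difference 0.00724), and Vcan, versican of monocytes, by 1.22 and -0.21 (adjusted p 0.0193). Csf1, Ccl4 and Jun rose less in WT than in KO, by log2 1.22 against 2.15, 2.65 against 3.77 and 2.02 against 2.68 (adjusted p 0.00401, 0.0292 and 0.0192). Outside the lists, Ifnlr1, of the 40 largest changes, differed as well, at -1.69 in WT and -0.94 in KO (adjusted p 0.0411). No HIF target, glycolysis, respiratory chain or interferon-stimulated gene was among the 73. At the share of 0.477% over all genes, lists of this size would hold few or none, so nothing is read from it. The KO columns carry a code in place of the genotype and were read as KO by elimination, and the count of 73 became 47 without normoxia replicate 2, 40 without normoxia replicate 4, 41 without hypoxia replicate 1, 46 without hypoxia replicate 2 and 45 without hypoxia replicate 3.

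**Figure D5:**
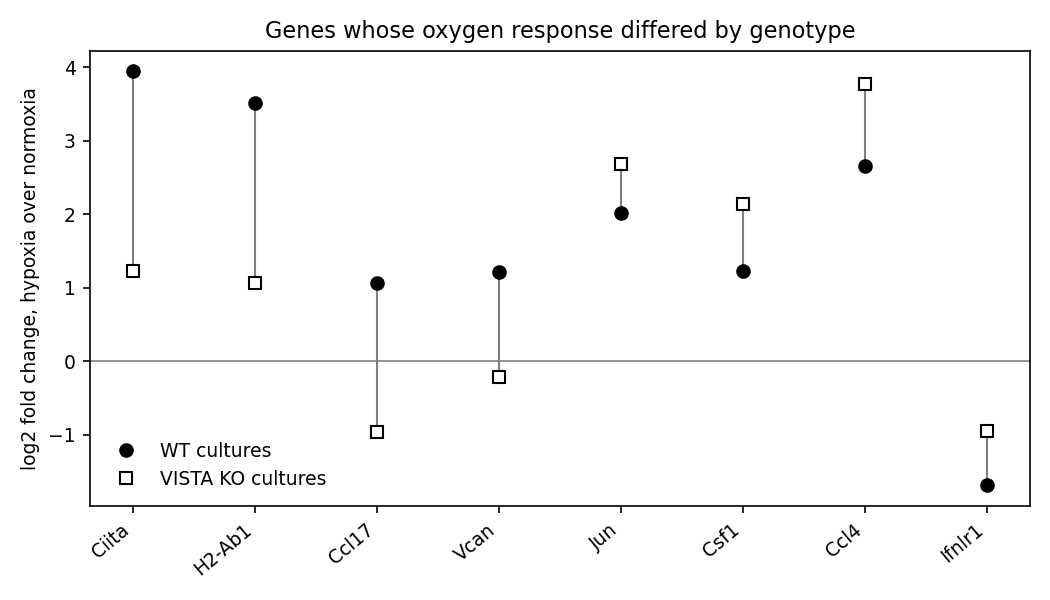
Log2 fold change of hypoxia over normoxia in WT cultures (filled circles) and VISTA KO cultures (open squares) for the 7 list members, and Ifnlr1, whose responses differed between the genotypes (4 libraries per group). Ciita, H2-Ab1, Ccl17 and Vcan lie higher in WT, and Jun, Csf1 and Ccl4 higher in KO.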

How the data were processed

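Per the labels' protocols, libraries were made from total RNA of whole cultures with a SMART-Seq kit (Takara). Alignment with Subread, counting with featureCounts, DESeq2 and the build GRCm38.p6 are named in the submitters' processing notes, without versions; the strand setting is not given in the sources used here. The authors deposited raw read counts per Ensembl gene in separate tables for normoxia and hypoxia, and columns were matched to samples by title. Gene names came from GENCODE vM21 and promoters from RefSeq (GRCm38.p6).

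WT hypoxia was tested against WT normoxia with edgeR 4.0.16 in R 4.3.3 (TMM scaling, expression filter, robust quasi-likelihood test, Benjamini-Hochberg adjustment over all tested genes, threshold 0.05), and against a 1.5-fold change with the same model. CPM are counts per 1000000 counts of the tested genes in the library, multiplied by its TMM factor before division, and ratios of low counts and bounds against 3 counts use the same scaled size. Fold changes are fitted values. The WT and KO responses were compared as an interaction over 16 culture libraries. Library-level values were compared by exact permutation. The test was checked on simulated counts.

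The samples compared and the gene lists were chosen with earlier results of these data known. Named genes are the 20 largest rises and falls among called genes whose log2 CPM averaged 4 or more and whose groups do not overlap, members of lists with at most 16 measured members, up to 8 members with the smallest p of larger lists, all members of 5 lists (HIF regulators and targets, glycolysis, polyamine, arginine) and a set of 27 further genes. Genes named otherwise are so marked or, as Itgam and Cd33, check the cell type. Some list members are counted with their list and not reported singly here. Alternatives were other scalings, filters, DESeq2 1.42.0, limma 3.58.1 with voom, thinning, GC content offsets, a replicate block and each library left out.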

Additional observations from a re-analysis of the deposited data

Results flagged for a closer look

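In 49 of the 672 groups of 4 libraries examined (named genes and library-level values), 1 library lay further from the others than Dixon's 95% limit for 4 samples allows, where chance gives about 1 group in 20. The values below are CPM. WT normoxia replicate 1 lay above the other 3 libraries of its group for Hba-a1 at 0.0394 and Hba-a2 at 0.0394. For these 2 genes that value is 1 count against 0 in the other libraries, so the limit is passed whatever the value and nothing is read from it. WT normoxia replicate 1 lay far below the other 3 libraries of its group for Cebpb at 361 and Ptgir at 61.3. WT normoxia replicate 2 lay far above the other 3 libraries of its group for Cdkn1a at 138 and Cxcl10 at 2.6. WT normoxia replicate 2 lay far below the other 3 libraries of its group for Egln3 at 96.8 and Pgk1 at 562. WT normoxia replicate 3 lay far above the other 3 libraries of its group for Aldoa at 2778, Cebpd at 90.1, Ly6c1 at 395, P4ha2 at 1.98, Paox at 19.8, Ppp1r15a at 21, Prss34 at 5.27, Prtn3 at 536, Selplg at 1002, Smox at 27.7 and Tpi1 at 589.8. It also lay above them for Flt3 at 0.165. The others were at 0 for Flt3, so the limit is again passed whatever the value and nothing is read from it. WT normoxia replicate 3 lay far below the other 3 libraries of its group for Amd1 at 74.4, Etfb at 7.37 and Hk2 at 71.3. WT normoxia replicate 4 lay far above the other 3 libraries of its group for Slc11a1 at 57.1. WT normoxia replicate 4 lay far below the other 3 libraries of its group for Fads1 at 113 and Tnfaip3 at 52.5. WT hypoxia replicate 1 lay far above the other 3 libraries of its group for Fpr2 at 84, Ly6c1 at 83.1 and mt-Atp8 at 2164. WT hypoxia replicate 2 lay far above the other 3 libraries of its group for Egln1 at 139.8, Havcr2 at 10.9, Il4ra at 351, Il7r at 53.2, Klf6 at 797, Ndufa4l2 at 3.23, Pgm1 at 192, Ppp1r3d at 58.9, Sirpa at 1135, Slc11a1 at 27.9 and Tnfsf14 at 39.8. WT hypoxia replicate 2 lay far below the other 3 libraries of its group for Cxcl10 at 2.72, Myc at 89.9, Nos3 at 0.272 and Tnf at 23.8. WT hypoxia replicate 3 lay far above the other 3 libraries of its group for Oat at 58.9. WT hypoxia replicate 4 lay far above the other 3 libraries of its group for Kit at 31.5. Among library-level values, the summed primary granule markers of normoxia replicate 3 (2586 CPM), the number of genes with at least 1 count in hypoxia replicate 3 (24667) and the share of counts in the 10 highest genes in hypoxia replicate 1 (10.2%) stood apart in the same way. Normoxia replicate 3 and hypoxia replicate 2 stood apart most often, and without them 8371 and 7228 genes were called.

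The oxygen response differed between WT and KO cultures for 15 of the genes named, by the test of the difference itself (edgeR's quasi-likelihood test over 16 culture libraries). On the log2 scale the WT response minus the KO response was 2.71 for Ciita, 2.45 for H2-Ab1, 2.03 for Ccl17 and 1.43 for Vcan, and it was -1.12 for Ccl4, -0.92 for Csf1, -0.74 for Ifnlr1 and -0.66 for Jun.

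The others lie outside the lists and are named after their values were seen, for the small p of their difference. Plet1 changed by a log2 of 2.24 in WT and 0.14 in KO, a difference of 2.10 (adjusted p 3.43e-04). Il2ra, the interleukin-2 receptor alpha chain, changed by 2.04 and -0.60, a difference of 2.64 (adjusted p 3.8e-04), and Itgae (CD103), an integrin of a dendritic cell subset, by 2.74 and 0.09, a difference of 2.65 (adjusted p 0.0082). Pira2, a paired immunoglobulin-like receptor with near copies, differed by 1.32 (0.28 in WT, -1.04 in KO, adjusted p 4.88e-05). The WT response was the lower for Acod1, which makes itaconate (0.40 in WT, 1.77 in KO, difference -1.37, adjusted p 3.13e-04), Perp (0.66, 2.04, difference -1.38, adjusted p 3.16e-04) and Mid1 (1.39, 5.94, difference -4.55, adjusted p 1.31e-04).

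Signal also stood in data outside the comparison, in genes listed in the hypoxia table only. Of 10078 such genes, 23 had at least 10 counts in every WT hypoxia library. Over the 4 WT hypoxia libraries Duxf3, a repeated gene of the early embryo, had 1031 counts, Gzmb, the granule protease granzyme B, 422, Dntt, the terminal transferase of lymphoid precursors, 411, Siglech 393, and Areg, the growth factor amphiregulin, 380. Against a floor of 3 counts over the 4 WT normoxia libraries these are at least 283-fold, 116-fold, 113-fold, 108-fold and 104-fold higher per TMM-scaled library size.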

How the results depend on the processing

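The count of 7754 called genes lay between 6246 (replicate block) and 8638 (no filter on low counts) over all alternatives, and between 6817 and 8371 with 1 library left out. Beyond 1.5-fold 2137 genes were called, 1546 by DESeq2, 1663 by limma-voom, 2591 with no filter, and 1902 to 2353 with 1 library left out. Of the list members 666 were called, and 610 to 701 with 1 library left out. The replicate numbers of the titles showed no pairing of the cultures. The correlations of same-numbered libraries, in deviations from their group means, were -0.215, -0.66, -0.671 and 0.00459. No library correlated best with its own number, and libraries of unlike number reached 0.576 and 0.617. With 4 libraries per group such correlations cannot exclude pairing. With the replicate block 6246 genes were called, 1857 of them beyond 1.5-fold. No paired analysis was possible for the difference between the WT and KO responses because the KO columns carry no replicate number of the titles. That difference, called for 73 genes, gave 40 to 85 with 1 WT library left out, and the cause was not tested. It gave 62 with thinned libraries, 79 and 84 with other scalings.

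Of 277 called genes named here, 258 kept direction and call under every alternative run, and none reversed. The call was lost without 1 library for 12, given above, and under another setting for 19. With library size alone Acly, Lonp1 and P4ha1 were among those lost (adjusted p 0.102, 0.247 and 0.0659). With the replicate block Amd1 and Ly6c2 were (adjusted p 0.0546 and 0.0583), and in the fit of all 16 culture libraries Aldh18a1 (adjusted p 0.105) and Vsir (adjusted p 0.16). Of the named genes not called, 20 gained a call under at least 1 alternative, Hif1a and Hk2 among them. Of 75 counts of 3 or more list members called in 1 direction, 6 moved by over 1.5 times without 1 library, 8 with the replicate block and 13 with library size alone, and of 27 counts of 1 or 2 members 15, 8 and 13 did. With the replicate block the lower calls became 5 for endoplasmic reticulum stress, 3 for complex V, 0 for oxygenases and 0 for polyamine genes. Depth bears on the low genes. Genes with at least 1 count were 24667 to 25806 per hypoxia library at full depth and 23550 to 24669 at equal depth, against 19939 to 20194 per normoxia library at that depth.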
